A study of Homo sapiens with 3 samples.

Results

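The MYC, MAX and MXD network is a set of transcription factors that pair through a basic helix-loop-helix leucine zipper and compete for the same DNA sites. Its 10 members were taken by gene symbol: MYC, MYCN, MAX, MXD1, MXD3, MXD4, MXI1, MNT, MGA and MLX. All 10 were found among the 17219 genes with values, and 9 of them were among the 12078 genes tested; MYCN stayed below 1 FPKM in every sample and was not tested. They were followed in KYSE140, an established human cell line of esophageal squamous cell carcinoma, in which DLX5, a homeobox transcription factor, was knocked down. MYC is a reported target of DLX5, which is why the network is of interest here.

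Cells of 3 groups were compared, each as 1 sample of KYSE140 grown in RPMI1640 with fetal bovine serum: cells given a negative control, cells with DLX5 knocked down by siRNA1, and cells with DLX5 knocked down by siRNA2. The siRNA sequences, the dose, the time after transfection and the nature of the negative control are not given in the sources used here. Each sample has 2 replicate columns of FPKM (fragments mapped to a transcript, scaled to its length in kilobases and to the depth of the library), and the estimated depth was 16950000 to 17400000 reads a column. Nothing says that the columns came from separate cultures, so an SD below is their spread, which may be technical, and each sample counted as 1 value. DLX5 itself read 13 ± 0.099 FPKM in the control (SD of 2 columns), 3.63 ± 0.028 with siRNA1 and 3.25 ± 0.028 with siRNA2 (limma, adjusted p = 0.0210). All 6 squamous markers were above 1 FPKM, at a highest value of 92.1 to 3127, and their values differed in direction. The keratins KRT5 and KRT6A carry their sum of 6750 FPKM in the control and 2978 and 3051 with the siRNAs, with KRT5 at 3127 FPKM against 1228 and 1274. TP63 read 92.1 FPKM against 90.6 and 79.4, and SOX2 read 212 against 272 and 277. The glandular markers reached at most 0.055 FPKM and the endothelial markers at most 0.215, while the fibroblast gene COL1A1 read 15.9 FPKM in the control with COL1A2 at 0.015, and the leukocyte gene PTPRC 1.195, 1.17 and 0.88 in control, siRNA1 and siRNA2. The part of these markers in the results below was not tested. Among 4 photoreceptor genes, looked at because the series text speaks of retina, the highest was NRL, at 1.15 FPKM.

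As background, MAX is the shared partner: MYC and MYCN pair with MAX to activate genes of growth and proliferation, whereas the MXD proteins, MNT and MGA pair with MAX to repress. The MXD proteins, MXI1 among them, and MNT do so by recruiting the SIN3 corepressor with its histone deacetylases, and MGA belongs to a Polycomb complex. MLX is a parallel partner that pairs with MNT, with some MXD proteins and with the glucose sensors MLXIP (MondoA) and MLXIPL (ChREBP). MYC is a frequent oncogene in squamous carcinoma, and MXD proteins are best known from cells that leave the cycle and differentiate, the keratinocyte among them.

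The preferred site of all these dimers is the E-box CACGTG, and promoters of members that hold it, or that belong to the member with the largest higher value, are shown to make the sites visible. The windows run from 250 bases before to 50 after a gene start in RefSeq, build GRCh38.p14, and 14 windows of 9 members were found; MYC had no entry. CACGTG, which reads alike on both strands, was in 3 of the 14 windows, those of MLX, MNT and MXD4, against 7.26% of all 35116 windows of this length. In the sequences, given 5′ to 3′ on the strand of the gene, capitals mark CACGTG for the first 3 genes and TTTNGCG, a core of the sites of E2F factors, for MXD3.
MLX (chr17:42566850-42567149, plus strand): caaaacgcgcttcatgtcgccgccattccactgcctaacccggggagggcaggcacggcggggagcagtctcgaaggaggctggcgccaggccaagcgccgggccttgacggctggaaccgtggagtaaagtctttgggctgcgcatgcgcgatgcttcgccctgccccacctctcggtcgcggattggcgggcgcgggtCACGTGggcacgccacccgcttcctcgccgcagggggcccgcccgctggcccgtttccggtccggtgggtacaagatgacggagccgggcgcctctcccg
MNT (chr17:2401011-2401310, minus strand): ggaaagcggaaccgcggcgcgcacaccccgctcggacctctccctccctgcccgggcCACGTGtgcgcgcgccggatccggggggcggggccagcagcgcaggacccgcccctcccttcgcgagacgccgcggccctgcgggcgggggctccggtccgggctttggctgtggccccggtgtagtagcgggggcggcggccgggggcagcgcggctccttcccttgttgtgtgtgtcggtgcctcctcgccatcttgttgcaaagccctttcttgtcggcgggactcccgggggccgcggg
MXD4 (chr4:2262060-2262359, minus strand): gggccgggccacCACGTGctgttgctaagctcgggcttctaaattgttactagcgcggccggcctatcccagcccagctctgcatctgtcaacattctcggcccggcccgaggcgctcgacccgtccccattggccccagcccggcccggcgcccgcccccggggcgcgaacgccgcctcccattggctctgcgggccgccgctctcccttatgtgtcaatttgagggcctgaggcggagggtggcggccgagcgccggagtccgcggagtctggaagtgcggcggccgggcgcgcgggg
MXD3 (chr5:177312703-177313002, minus strand): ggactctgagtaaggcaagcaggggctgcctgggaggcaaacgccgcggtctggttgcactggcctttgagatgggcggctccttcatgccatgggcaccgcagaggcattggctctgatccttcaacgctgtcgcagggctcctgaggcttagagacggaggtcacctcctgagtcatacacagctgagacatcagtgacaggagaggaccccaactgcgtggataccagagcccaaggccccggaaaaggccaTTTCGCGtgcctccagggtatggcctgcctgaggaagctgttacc
The E-box begins at position -50 from the gene start in MLX, -193 in MNT and -238 in MXD4. TTTNGCG, searched on both strands, was in 4 of the 14 windows (5.14% of all windows), those of MYCN, MXD3 and a pair of windows of MGA, and in MYCN 2 overlapping matches were counted. TAATT, the core that homeodomain proteins such as DLX5 recognize, was found on either strand in 1 member window, an MGA window, where its 2 matches overlap as TAATTA, against 24.8% of all windows. A match is only a run of letters, and the member windows were richer in G and C (median 65.7%) than all windows (58.7%).

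In control cells MYC was the highest member by far and the repressors were low. FPKM is per transcript length, so levels can be set side by side between genes. MYC read 69.5 FPKM, above 93.9% of all genes with values, MAX 30.1 and MLX 24.3 FPKM. The repressors followed in the order MNT (5.18), MGA (4.19), MXI1 (3.26), MXD3 (3.23), MXD4 (2.14) and MXD1 (2.05 FPKM), and MYCN stood at 0.15. Of neighbors in this order, MXI1 and MXD3 had overlapping replicate columns; MXD4 and MXD1 were apart by less than the gap between the 2 columns of MXD4. The other neighbors did not overlap. MYC thus made up 48.2% of the summed FPKM of the 10 members in the control.

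**Figure D1:**
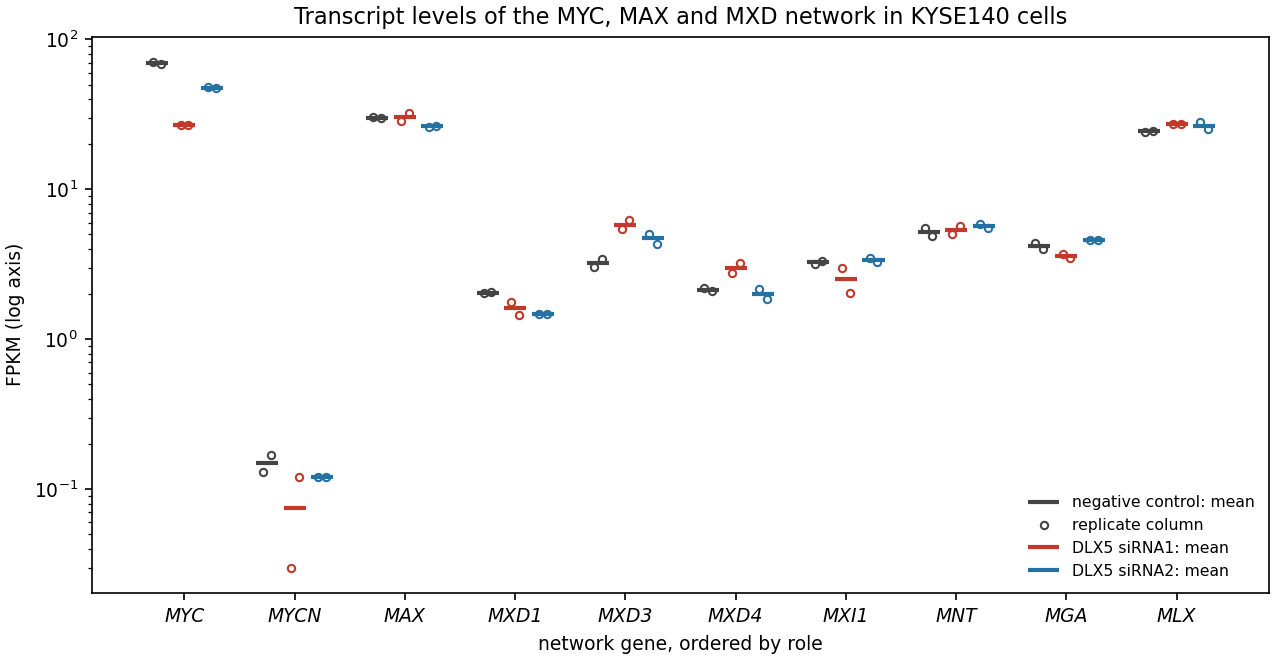
FPKM (log axis) of each network gene in the negative control, DLX5 siRNA1 and DLX5 siRNA2 samples; lines are sample means and circles are the 2 replicate columns. MYC is lower with both siRNAs (69.5 FPKM in the control, 26.8 and 47.8), and the repressors lie between 1.48 and 5.81 FPKM.

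The network gene that differed most was MYC itself (Entrez gene 4609, chromosome 8, 128748315 to 128753680, plus strand, hg19). Its columns read 70.7 and 68.3 FPKM in the control, 26.8 in both with siRNA1, and 48.1 and 47.4 with siRNA2. The 3 samples did not overlap: the control was highest, siRNA1 lowest and siRNA2 between them. Against the control MYC was lower by 2.59-fold in the siRNA1 sample and by 1.45-fold in the siRNA2 sample, from about 5589 estimated reads in the control, 2193 with siRNA1 and 3921 with siRNA2. Over the 3 samples its log2 change was -0.94 ± 0.32 (SE) and did not pass the test across all genes (limma with a trend, adjusted p = 0.183). That test takes its spread from the gap between the 2 siRNA samples, drawn toward the spread of other genes. Gene positions here and below are hg19, as deposited. In RNA from a whole culture, fewer cells with the transcript and less of it per cell cannot be told apart.

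The level of MYC differed between the knockdowns. DLX5 was lower by 3.58-fold in the siRNA1 sample and by 4.0-fold in the siRNA2 sample. MYC was 1.78-fold higher with siRNA2 than with siRNA1. With the 6 replicate columns as separate values, a fit whose spread is only that within samples, this difference was 0.81 ± 0.04 (SE) on the log2(FPKM + 1) scale (limma, adjusted p = 7.0e-07), a p that compares these 2 samples and not the siRNAs. Among the 6558 genes that averaged 10 FPKM or more, 56 were lower than MYC relative to the control with siRNA1 and 441 with siRNA2, and 103 had a larger difference between the siRNAs in either direction. The authors' deposited table lists MYC at a log2 fold change of -1.37 for siRNA1 against control and -0.54 for siRNA2 against control, the latter with a DEGseq q-value of 4.85e-75, and 0.83 for siRNA2 against siRNA1 with a q-value of 2.5e-110. With 1 sample per group, the DEGseq q-values here and below also compare these samples and say nothing of further cultures.

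The genes whose change was nearest to that of MYC, over the pair of log2 changes, were PHLDA2, ADI1, ITGA6, USP14 and FOSL1, at distances of 0.029 to 0.17. PHLDA2 read 41.5 FPKM in the control, 15.4 with siRNA1 and 28.6 with siRNA2. FOSL1, an AP-1 subunit, read 64.4, 22.2 and 42.3 FPKM, and the integrin ITGA6, a hemidesmosome receptor of basal keratinocytes, 73.5, 30.2 and 49.5 FPKM. The likeness rests on 2 changes against a shared control, and none of the 5 passed the test (adjusted p between 0.151 and 0.229).

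MYCN (Entrez gene 4613, chromosome 2, 16080560 to 16087129, plus strand), the paralog of MYC best known from the nervous system, was close to silent. Its columns read 0.13 and 0.17 FPKM in the control, 0.03 and 0.12 with siRNA1, and 0.12 in both with siRNA2, or about 15, 8 and 13 estimated reads a sample. The authors' deposited table gives DEGseq q-values of 0.046 and 0.232 for siRNA1 and siRNA2 against control. The other paralog, MYCL, read 2.27 FPKM in the control and 2.47 and 2.21 with the siRNAs (adjusted p = 0.952).

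MAX (Entrez gene 4149, chromosome 14, 65472819 to 65569262, minus strand), the partner that every MYC dimer needs, read close to its control level. Its columns read 30.4 and 29.8 FPKM in the control, 28.7 and 32.1 with siRNA1, and 26.1 and 26.5 with siRNA2. The siRNA1 columns spanned those of the control, and the siRNA2 columns were below both others, with a mean change of -12.7% from the control. The log2 change over the 3 samples was -0.09 ± 0.17 (SE; limma, adjusted p = 0.825). MYC read 2.31 times the level of MAX in the control, 0.881 times with siRNA1 and 1.82 times with siRNA2. With siRNA1, MAX and MLX were thus the highest members, above MYC.

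Of the MXD genes, MXD3 was higher and MXD1 lower in every siRNA column than in the control, and MXD4 and MXI1 stood apart from the control with siRNA1, with columns that overlapped the control with siRNA2. MXD3 (Entrez gene 83463, chromosome 5, 176732501 to 176739292, minus strand), which unlike its relatives is made mainly in proliferating cells in S phase, read 3.04 and 3.41 FPKM in the control columns, 5.42 and 6.2 with siRNA1, and 5.06 and 4.34 with siRNA2. The groups did not overlap, with ratios to the control of 1.8 and 1.46, yet the log2 change of 0.56 ± 0.19 (SE) did not pass the 3-sample test (limma, adjusted p = 0.191). It rests on about 292 estimated reads in the control, 535 with siRNA1 and 434 with siRNA2. Exons of MXD3 overlap those of RAB24 on the same strand and PRELID1 on the other in GENCODE v29. RAB24 read 7.52, 8.51 and 7.26 FPKM and PRELID1 130, 133 and 143 FPKM in control, siRNA1 and siRNA2; their part in the MXD3 value was not tested. In the authors' deposited table MXD3 has DEGseq q-values of 2.01e-08 and 0.000345 for siRNA1 and siRNA2 against control. Low q-values there were not particular to MXD3: MXD1 has 0.00115 and 1.68e-05, MLX 6.61e-05 and 0.00189, and MGA 7.5e-06 and 0.00588. MAX and MNT have 0.260 and 0.256 with siRNA1 but 1.97e-06 and 0.0377 with siRNA2. MXD4 and MXI1 have 0.281 and 0.277 with siRNA2 but 1.05e-05 and 0.00216 with siRNA1. The share of all genes with a low q-value was not counted.

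MXD1 (Entrez gene 4084, chromosome 2, 70142173 to 70170077, plus strand), also called MAD, is the member most tied to keratinocyte differentiation. It read 2.04 and 2.06 FPKM in the control columns, 1.77 and 1.46 with siRNA1, and 1.47 and 1.48 with siRNA2. All siRNA columns were thus below the control, with mean changes of -21.2% and -28.05% (log2 change -0.26 ± 0.17 SE; limma, adjusted p = 0.470). The splicing gene SNRNP27, whose exons overlap those of MXD1 on the same strand, fell from 23.1 FPKM to 10.0 and 8.71 (limma, adjusted p = 0.0293), and its part in the MXD1 value was not tested.

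In the siRNA1 sample MXD4 was above the control and MXI1 below it. MXD4 (Entrez gene 10608, chromosome 4, 2249160 to 2263739, minus strand) read 2.19 and 2.09 FPKM in the control, 2.77 and 3.24 with siRNA1, and 2.18 and 1.85 with siRNA2, so that the siRNA1 columns were above the control, at 1.40 times its mean, and the siRNA2 columns reached into its range. MXI1 (Entrez gene 4601, chromosome 10, 111967363 to 112047123, plus strand), also called MXD2, read 3.18 and 3.33 FPKM in the control, 3.01 and 2.05 with siRNA1, and 3.46 and 3.29 with siRNA2. Its siRNA1 columns were both below the control but differed from each other by more than their mean did from it. Neither passed the 3-sample test (limma, adjusted p = 0.776 for MXD4 and 0.811 for MXI1). Each rests on 264 to 406 estimated reads a sample.

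The larger repressors MNT and MGA were near control level. MNT (Entrez gene 4335, chromosome 17, 2287354 to 2304258, minus strand), the broadly made antagonist of MYC, read 5.48 and 4.87 FPKM in the control, 5.02 and 5.68 with siRNA1, and 5.84 and 5.51 with siRNA2. Both knockdowns were above the control on average, by 3.38% and 9.66%, with the siRNA1 and control columns overlapping (limma, adjusted p = 0.858). MGA (Entrez gene 23269, chromosome 15, 41952610 to 42062141, plus strand), a very large protein that also carries a T-box, read 4.38 and 3.99 FPKM in the control, 3.70 and 3.49 with siRNA1, and 4.56 and 4.59 with siRNA2. Its mean change was -14.1% with siRNA1 and 9.32% with siRNA2, with no overlap of columns (limma, adjusted p = 0.944).

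MLX (Entrez gene 6945, chromosome 17, 40719078 to 40725221, plus strand) was higher in every siRNA column than in the control by a small margin. Its columns read 24.0 and 24.6 FPKM in the control, 27.5 and 27.2 with siRNA1, and 28.0 and 25.2 with siRNA2. The means were 12.3% and 9.36% above the control (log2 change 0.14 ± 0.15 SE; limma, adjusted p = 0.671). PSMC3IP, whose exons overlap those of MLX on the other strand, read 12.8, 15.2 and 12.6 FPKM. Of the partners of MLX, MLXIP read 7.82 FPKM in control cells, 7.78 with siRNA1 and 7.88 with siRNA2, and MLXIPL 3.89, 2.12 and 2.78 (adjusted p = 0.997 and 0.231). The MLX targets TXNIP, an inhibitor of glucose uptake, and ARRDC4 were below the control in every siRNA column, TXNIP at 20.7 FPKM against 18.5 and 14.4, and ARRDC4 at 9.90 against 8.31 and 7.08, and neither passed (adjusted p = 0.434 and 0.395).

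Counted over the network, no member passed the 3-sample test in either direction (limma, adjusted p under 0.05), where 1.67% of all genes tested were lower and 1.42% higher. At an unadjusted p under 0.05 there were 2 of 9, MYC and MXD3, against 19.5% of all genes. None was at least 1.5-fold lower or higher with both siRNAs (6.37% and 4.73% of all genes). MYC with 1.45-fold and MXD3 with 1.46-fold missed this by their siRNA2 values. All siRNA columns were below both control columns in 2 of 9, MYC and MXD1, and above them in 2, MXD3 and MLX, beside 26.8% and 31.0% of all genes. With the 6 columns as separate values, MYC was lower and MXD3 higher with both siRNAs, 1 of 9 each way against 18.6% and 21.8% of all genes. The median log2 change of the 9 was 0.01 with siRNA1 and 0.04 with siRNA2, beside 0.03 and 0.01 over all genes tested.

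**Figure D2:**
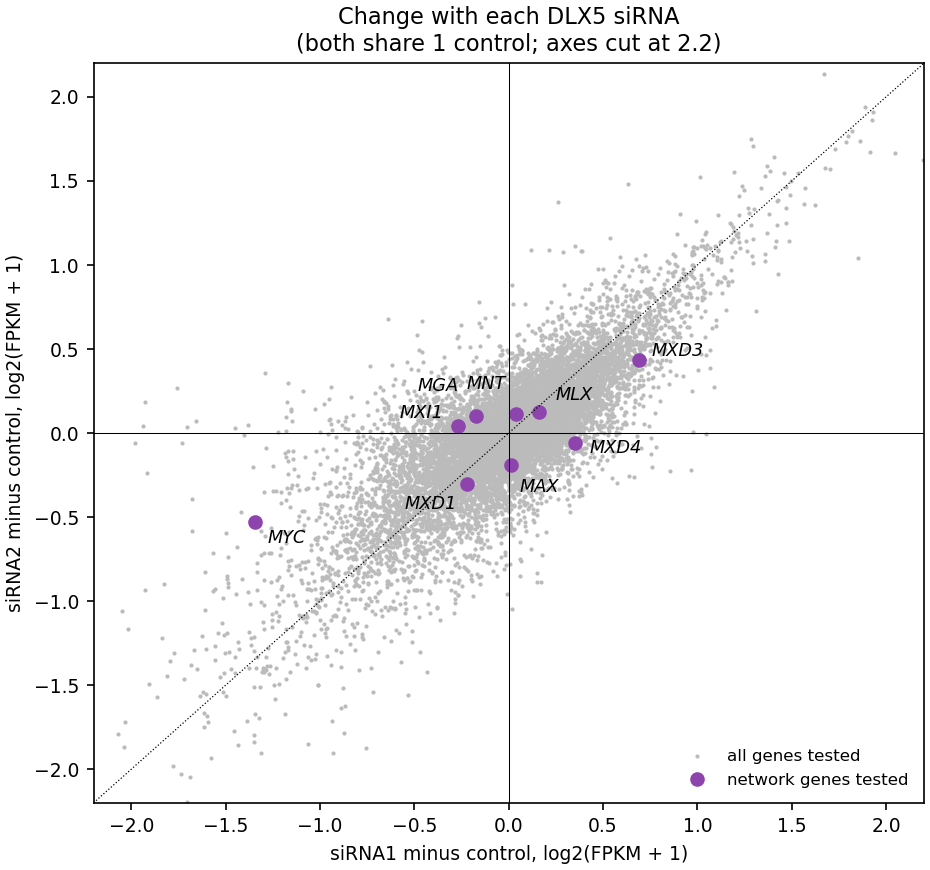
Change against the control on the log2(FPKM + 1) scale with siRNA1 (horizontal) and siRNA2 (vertical) for all 12078 genes tested (gray; 18 lie outside the axes) and the 9 network genes tested (purple); the dotted line marks equal change. Both axes share 1 control. MYC lies at -1.34 and -0.53, MXD3 at 0.69 and 0.43.

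The 2 siRNA samples were also set against each other. As each siRNA is 1 sample, this compares 2 samples by the spread of their columns, which may be technical, and says nothing of how the siRNAs would differ in further cultures. On that spread 6 of 9 members passed an adjusted p of 0.05 (MYC, MAX, MXD3, MXD4, MXI1 and MGA), against 40.4% of all genes tested. MYC, MXI1 and MGA were higher with siRNA2, and MAX, MXD3 and MXD4 were higher with siRNA1. MXD4 differed by -0.41 ± 0.09 (SE), MXI1 by 0.32 ± 0.12 and MGA by 0.28 ± 0.07 (limma, adjusted p = 0.00658, 0.0487 and 0.0125).

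**Figure D3:**
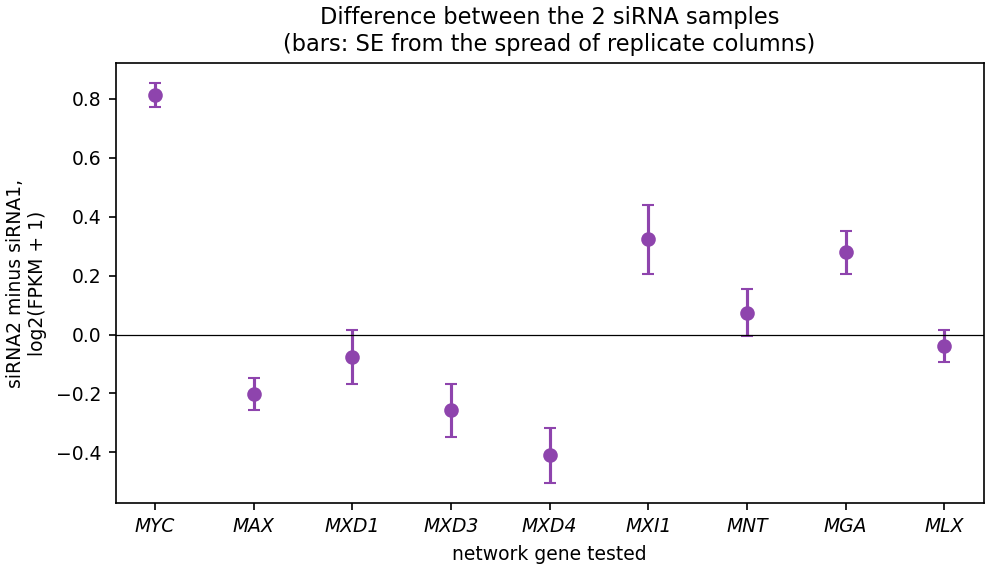
Difference between the siRNA2 and siRNA1 samples on the log2(FPKM + 1) scale for the 9 network genes tested; bars are the SE from the spread of replicate columns. MYC stands highest at 0.81 and MXD4 lowest at -0.41, while MXD1, MNT and MLX lie within 1 SE of 0.

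Repressor and activator transcripts were set against each other within each sample. The summed FPKM of MXD1, MXD3, MXD4, MXI1 and MNT was 15.8 in the control, 18.3 with siRNA1 and 17.2 with siRNA2. That of MYC and MYCN was 69.6, 26.9 and 47.9. MGA, at 4.185 FPKM in the control, 3.595 with siRNA1 and 4.575 with siRNA2, was left out of the repressor sum. The repressor sum was thus 22.8% of the activator sum in the control, 68.2% with siRNA1 and 36.0% with siRNA2, with columns of 22.5% and 23.0%, 67.1% and 69.2%, and 37.3% and 34.7%. The 3 samples did not overlap. There is 1 value per siRNA and 1 control, and the ratio has no test.

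**Figure D4:**
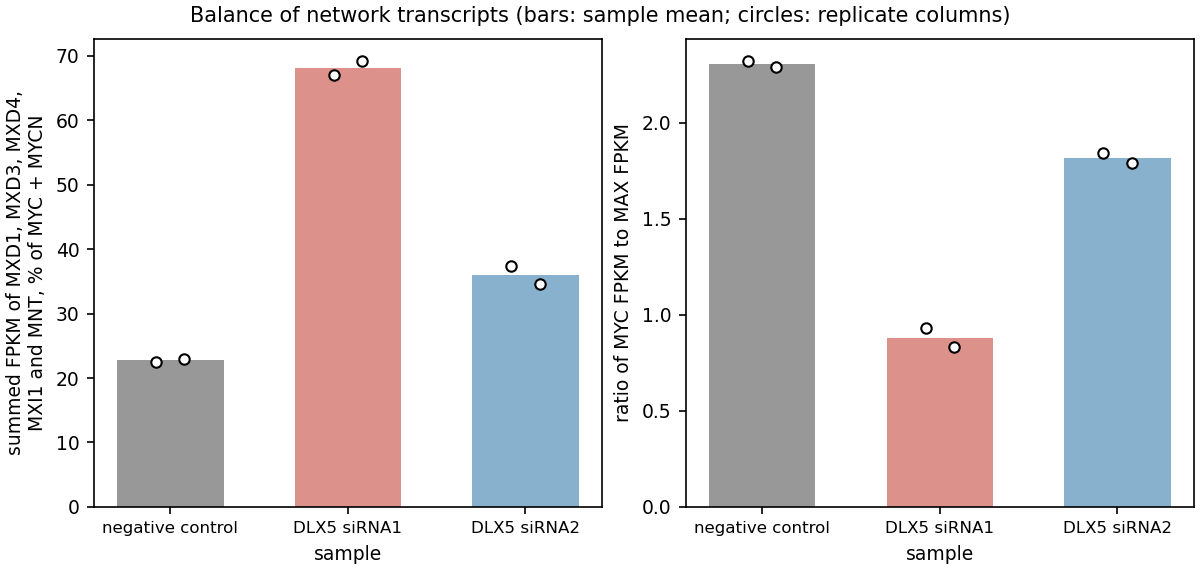
Left, summed FPKM of the MXD genes and MNT as a percentage of that of MYC and MYCN; right, the ratio of MYC to MAX FPKM. Bars are sample means and circles the 2 replicate columns. The left ratio is 22.8% in the control, 68.2% with siRNA1 and 36.0% with siRNA2, and the right ratio 2.31, 0.881 and 1.82.

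Around the network, 144 genes of 12 lists were tested, of which 5 fell and 4 rose. Over all genes tested the same fit called 1.67% lower and 1.42% higher, and the counts of each list below stand beside these shares. Of 14 genes of the SIN3 complex, the corepressor that MXD proteins and MNT recruit, 1 rose and none fell, with a median log2 change of 0.19 beside 0.01 over all genes. In 8 of the 14 every siRNA column was above the control, against 31.0% of all genes. The riser was HDAC1, a histone deacetylase, from 71.2 FPKM to 156 and 134 (limma, adjusted p = 0.0324), and SIN3A itself read 14.0 FPKM against 15.8 and 15.3 (adjusted p = 0.685). None of 14 MYC cofactors passed (median 0.14), and 10 of them had every siRNA column above the control, against 31.0% of all genes. Among these, SMARCB1, a chromatin remodeler that binds MYC, read 63.4 FPKM against 82.3 and 75.9 (adjusted p = 0.304), and the acetyltransferase KAT2A 20.9 against 24.5 and 25.4 (adjusted p = 0.451).

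Regulators of MYC protein stability gave no call among 16 genes (median -0.06). The largest changes were in PPP2CA, the catalytic subunit of the phosphatase that destabilizes MYC, at 90.2 FPKM against 24.7 and 47.9 (adjusted p = 0.107), and in PIM1, a kinase that stabilizes it, at 8.21 against 4.07 and 4.65 (adjusted p = 0.0843). No call was made among 9 Polycomb partners of MGA (median -0.06), where PCGF6, the subunit that defines this complex, read 7.02 FPKM against 9.02 and 9.67 (adjusted p = 0.317) and the ubiquitin ligase RING1 20.5 against 27.4 and 24.8 (adjusted p = 0.3303). Of 8 other factors with the same fold that bind E-boxes, TFAP4, itself a known MYC target, rose from 8.17 FPKM to 15.9 and 17.4 (limma, adjusted p = 0.0458).

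Genes that MYC is known to activate had list medians near 0 over the 3 samples. Medians were -0.03 over 20 nucleolar and ribosome biogenesis genes and 0.07 over 8 translation genes. They were -0.07 over 26 metabolic genes and -0.04 over 13 cell cycle genes, beside 0.01 over all genes. With siRNA1 and siRNA2 alone, medians were -0.08 and 0.15 for nucleolar genes and 0.07 and 0.15 for translation genes. They were -0.15 and 0.02 for metabolic genes and -0.10 and -0.02 for cell cycle genes, beside 0.03 and 0.01 over all genes. Of the metabolic genes, 11 had every siRNA column below the control and 7 above it, against 26.8% and 31.0% of all genes. The nucleolar list held 3 calls in both directions. NOLC1 rose from 29.3 FPKM to 72.7 and 101 and TCOF1, which supports ribosomal DNA transcription, from 31.4 to 69.8 and 70.5, while NPM1 fell from 1427 FPKM to 732 and 567 (limma, adjusted p between 0.0227 and 0.0304). NPM1 has many processed pseudogenes, and their part in its value was not tested. The initiation factors EIF3B and EIF4A1 read 175 against 222 and 238, and 492 against 613 and 720 FPKM (adjusted p = 0.171 and 0.161). No translation, metabolic or cell cycle gene passed; the iron receptor TFRC read 179 FPKM against 113 and 86.8 (adjusted p = 0.0764), the helicase subunit MCM7 175 against 254 and 197 (adjusted p = 0.343), and E2F1 16.4 against 29.3 and 27.4 (adjusted p = 0.0664).

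The list of genes that MYC is known to repress had 4 of 11 tested members lower and none higher, beside 1.67% and 1.42% of all genes (median -0.49, beside 0.01 over all genes). Without the filter on low values none of the 4 passed, as no gene of the table did. The lists were chosen with earlier results of these data known, so the 4 of 11 only describes this list and was not tested. CDKN1C, an inhibitor of cyclin-dependent kinases, fell from 13.7 FPKM to 3.93 and 2.85, and its relative CDKN1A (p21) from 63.1 to 22.7 and 16.7. GADD45A, a stress and growth arrest gene, fell from 114 FPKM to 41.7 and 47.8, and NDRG1, a differentiation and hypoxia gene, from 17.5 to 8.48 and 7.28 (limma, adjusted p between 0.0221 and 0.0407). CDKN1A and GADD45A are also p53 targets. CDKN1B, which belongs to the same inhibitor family, read 41.5 FPKM against 50.02 and 41.6 (adjusted p = 0.728).

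**Figure D5:**
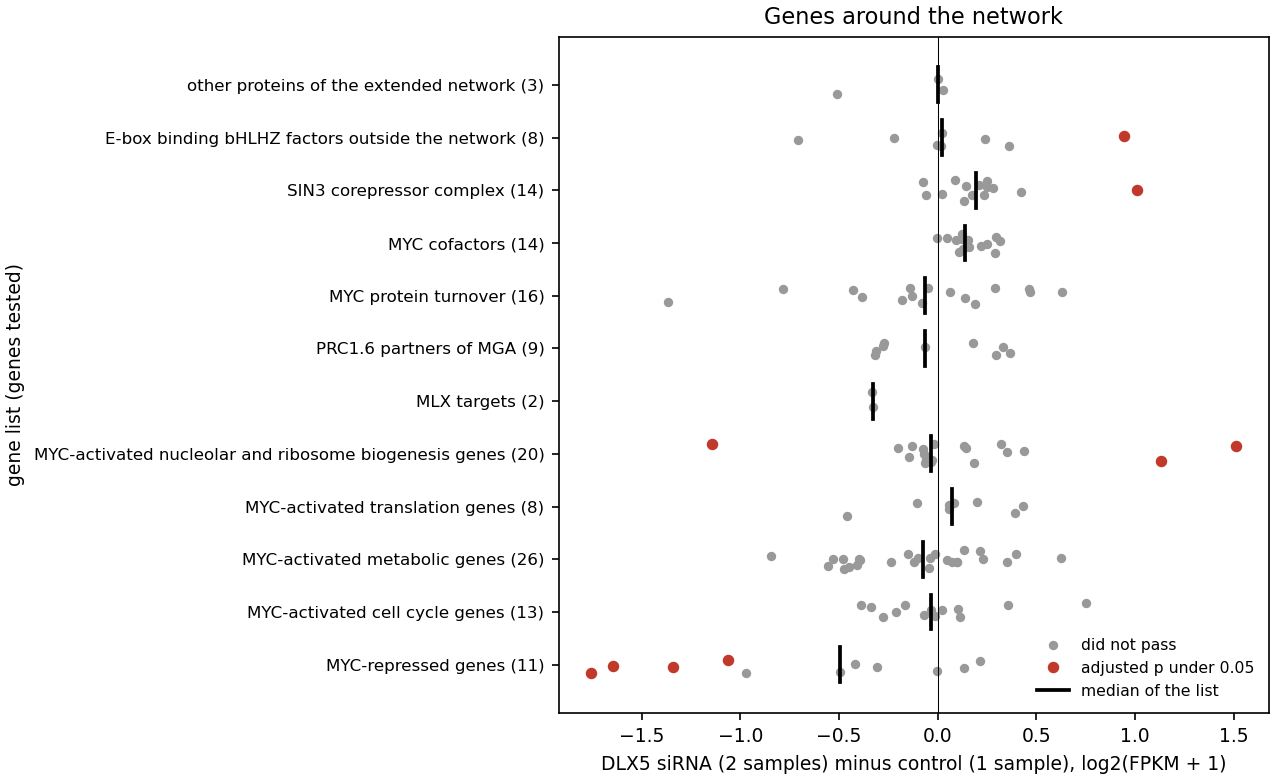
Log2 change of each tested gene (DLX5 siRNA, 2 samples, minus control, 1 sample) in 12 lists around the network, with red points for an adjusted p under 0.05 and black bars for list medians. The genes repressed by MYC have their median at -0.49, and the lists of genes activated by MYC have theirs between -0.07 and 0.07. The lists were chosen with earlier results of these data known, and no list was tested as a set.

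Genes were also counted by whether a promoter window holds the E-box. Of 1280 tested genes with CACGTG in a window, 0.859% fell and 1.41% rose, and of 8672 genes with windows but no CACGTG 1.58% fell and 1.37% rose. Their median log2 changes were 0.01 with siRNA1 and 0.02 with siRNA2 for genes with the E-box, and 0.04 and 0.02 for genes without it.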

How the data were processed

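Total RNA of KYSE140 cells was sequenced, 1 negative control sample and 2 DLX5 siRNA samples, and the authors deposited 1 table of genes. Its values are FPKM, 2 replicate columns and their mean per sample, per the file headers. Tools listed in the submitters' processing notes, without roles, are RSEM 1.2.12, HISAT2 2.0.4, DESeq 3.4 and Bowtie2 2.2.5, and the build is hg19. The authors' log2 fold changes and DEGseq q-values are also in the deposited table. No source used here gives the strand setting of the counting, so overlapping genes on opposite strands, which GENCODE v29 lists for 7 members, cannot be separated.

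From 19280 lines, 14 without a gene ID and 2047 genes without values were left out. A heading shared by 2 columns made both unusable, and column 1 of an siRNA sample was taken as 2 times the mean minus column 2. Reads were estimated from the spacing of low FPKM values of short genes (83.9% to 89.6% of values within 0.2 of a whole number of reads) and the longest transcript, and are approximate.

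The design allowed for counts; as the table holds FPKM, limma 3.58.1 (R 4.3.3) with a trend was run on log2(FPKM + 1), a scale that understates changes of low genes. Genes with at least 1 FPKM in a sample entered, control against DLX5 siRNA, Benjamini-Hochberg 0.05, with 1 residual and 5.16 prior degrees of freedom. The prior part draws the spread of a gene toward that of other genes. The p-values thus rest on the spread between these samples over many genes and not on further cultures. The pipeline was tested on simulated data. Alternatives were a pseudocount of 0.1, no filter, quantile normalization, columns as separate values, other thresholds and leaving out each siRNA sample. The members and lists were chosen with earlier results of these data known. Named were all members, DLX5, of each list up to 4 genes that passed or else up to 2 with the largest change common to both siRNAs, and the 5 genes nearest to MYC; SIN3A, CDKN1B, MLXIP and genes that overlap a member, were named besides these, after their values were seen. The result of 1 gene that this rule names is not reported here. Promoter windows are from RefSeq (GRCh38.p14), another build than the table's coordinates.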

Additional observations from a re-analysis of the deposited data

Results flagged for a closer look

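In 6 of 9 members the single siRNA1 and siRNA2 samples differed (limma, adjusted p under 0.05), against 40.4% of all genes tested. The fit takes its spread from the replicate columns, which may be technical, and draws it toward that of other genes. The p-values compare these samples and not the siRNAs. In MXI1 the siRNA1 columns, at 3.01 and 2.05 FPKM, lay further apart than the siRNA1 and siRNA2 means of 2.53 and 3.375. On the log2(FPKM + 1) scale, siRNA2 minus siRNA1 was 0.81 for MYC (limma, adjusted p = 7.0e-07), -0.20 for MAX (0.0162), -0.26 for MXD3 (0.0449), -0.41 for MXD4 (0.00658), 0.32 for MXI1 (0.0487) and 0.28 for MGA (0.0125). MGA was below the control with siRNA1 and above it with siRNA2, in both columns each time. Whether this comes from the siRNAs or from single cultures cannot be told apart with 1 sample per siRNA.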

How the results depend on the processing

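Over all genes, 171 rose and 202 fell in the 3-sample fit, and this count depends on the setting: 0 and 0 without the filter on low values (limma; 2444 genes had an unadjusted p below 0.05), 12 and 10 with quantile-normalized values, 365 and 468 at an adjusted p under 0.10, and 2638 and 2247 with replicate columns as separate values. Of the network, 1 member was higher and 1 lower with columns as separate values. At the lower fold threshold tried, 1 was higher and 2 lower with both siRNAs. Leaving out an siRNA sample gave 0 to 1 in each direction at 1.5-fold. The share of all genes was counted at neither of these settings, so these counts cannot be set against it. List genes called higher and lower were 0 and 0 without the filter, as for all genes. With columns as separate values they were 35 and 29 of 144, beside 21.8% and 18.6% of all genes tested. MYC kept its direction in all settings tried. With columns as separate values its mean log2 change was -0.94, for which no p was taken. In that fit MYC was called with each siRNA against control (limma, adjusted p = 5.7e-09 with siRNA1 and 2.7e-06 with siRNA2). When 1 siRNA sample was left out its log2 change was -1.34 to -0.53, values with no test. MGA turned from -0.03 to 0.018 with quantile normalization, with no call either way. Leaving out the siRNA1 sample changed the sign of MXD4 (to -0.059), MXI1 (to 0.040) and MGA (to 0.105). Leaving out the siRNA2 sample changed that of MAX (to 0.014). The other tested members kept their direction. The summed FPKM of the MXD genes without MNT, as a percentage of MYC alone, was 15.4% in the control, 48.4% with siRNA1 and 24.2% with siRNA2. The cause of these shifts was not tested, other than that columns as separate values take a smaller spread. No test could be made with 1 siRNA sample left out. Depth limits MYCN, at 8 to 15 estimated reads, and the MXD genes, at 264 to 954 with MNT.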
